A study of Mus musculus with 48 samples.

Results

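The 7 genes described here encode the subunits of the N-methyl-D-aspartate (NMDA) receptor: Grin1, Grin2a, Grin2b, Grin2c, Grin2d, Grin3a and Grin3b. They were taken by symbol from a table of 21558 genes and all 7 were found. NMDA receptors are glutamate-gated cation channels that pass calcium and are blocked by magnesium at rest. Every such receptor contains the GluN1 subunit (Grin1), which binds the co-agonist glycine or D-serine. The GluN2 subunits (Grin2a to Grin2d) bind glutamate and set the kinetics and the magnesium block of the channel, and the GluN3 subunits (Grin3a and Grin3b) bind glycine and lower calcium entry. In forebrain neurons GluN2B predominates early in life and GluN2A is added during maturation. GluN2C is the cerebellar granule cell subunit and is also made in the thalamus and in astrocytes. GluN2D is typical of the diencephalon, brainstem and interneurons.

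The study measured RNA in the hypothalamus of male C57BL/6 mice in 48 libraries, each a pool of tissue from 3 mice. The late noise unloaded and late noise free-moving mice were 3 months old and were kept at 85 dBA and 0.9 atm. The late quiet unloaded and late quiet free-moving mice were 3 months old and were kept at 10 dBA and normal air pressure. The early unloaded and early free-moving mice were 2 months old, also at 10 dBA and normal pressure. Unloaded mice underwent hind limb unloading, which mimics weightlessness on the ground and in which the hind limbs are lifted off the cage floor, and the others moved freely. The early conditions have 2 series each with identical labels, called a and b here, and each late condition is 1 series, so that in the late period a condition and its series cannot be told apart. Noise and low pressure were always applied together, and the later period always goes with the older age. Each of the 8 series holds 6 libraries whose titles carry the numbers 1, 5, 9, 13, 17 and 21, read here as time of day although the labels give no unit. The design text gives all mice as 2 months old, whereas the labels of the late series say 3 months, and it gives the strain as C57BL/6N, whereas the labels say C57BL/6. Spread between pools is all that the p-values measure.

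Depth recovered from the steps of the values was 28.3 M to 55.3 M reads per library. All 9 hypothalamic and all 8 neuronal marker genes were detected. In bulk tissue, fewer cells of a type and less RNA per cell cannot be told apart. The 13 protein-coding genes of the mitochondrial genome took from 8.95% to 62.4% of all RPKM in a library, and this mitochondrial share moves with several groups. It averaged 33.6% ± 17.2 in late noise unloaded, 28.3% ± 8.55 in late noise free-moving, 14.03% ± 1.32 in late quiet unloaded and 11.5% ± 1.68 in late quiet free-moving libraries (SD, n = 6 each). In the early period it averaged 27.4% ± 13.1 in unloaded and 43.1% ± 12.2 in free-moving libraries (SD, n = 12 each).

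Grin1 was the most abundant subunit transcript in every library and Grin3b the least abundant in most. The deposited unit, RPKM, scales reads by transcript length and library size, so levels can be compared between genes, but only roughly. Noncoding sequence makes up 82.1% of the annotated exon length of Grin2b and 75.5% of that of Grin2a. It makes up 26.2% for Grin2c and 7.98% for Grin3b. How far the length used moves the order of the subunits was not tested. Over the 48 libraries Grin1 ranged from 13.8 to 34.1 RPKM with a median of 27.8. Grin2d had a median of 12.4 RPKM (3.72 to 14.9) and Grin2c one of 9.42 RPKM (6.30 to 16.5). Grin1 was above Grin2d in 48 of 48 libraries and Grin2d above Grin2c in 41, so the leading glutamate-binding subunits were close but usually in that order. Grin3a had a median of 3.49 RPKM (1.54 to 7.81), Grin2b one of 1.58 RPKM (0.339 to 6.83) and Grin2a one of 1.33 RPKM (0.344 to 3.17). Grin2c was above Grin3a in 46 libraries, and Grin3a was above Grin2a in 48 and above Grin2b in 47. The order of Grin2b and Grin2a was not fixed. Grin2b was the higher of the pair in 36 of 48 libraries, in 6 of 6 in both late quiet series but in 3 of 6 in both early free-moving series and in early unloaded series b. Grin3b had a median of 0.412 RPKM (0.0852 to 0.657), which is 50.5 reads at the median and 9 reads at the lowest. Its mean stayed under the 0.5 RPKM needed for testing, so only its level is given.

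Summed over the 7 genes the subunits came to 55.8 ± 10.6 RPKM (SD, n = 48), of which Grin1 took 47.3% ± 2.56, the share with the smallest SD relative to its mean. Grin2d took 21.1% of the sum and Grin2c 18.3%. Grin2b took 3.50% ± 2.55, with a lowest share of 0.874% and a highest of 11.2%. Its share averaged 8.76% ± 1.38 in late quiet free-moving libraries and 1.31% ± 0.320 in early free-moving series b (SD, n = 6 each). The spread between libraries, as highest over lowest RPKM, was 20.1-fold for Grin2b, 9.22-fold for Grin2a and 5.08-fold for Grin3a, against 2.46-fold for Grin1 and 2.62-fold for Grin2c.

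**Figure D1:**
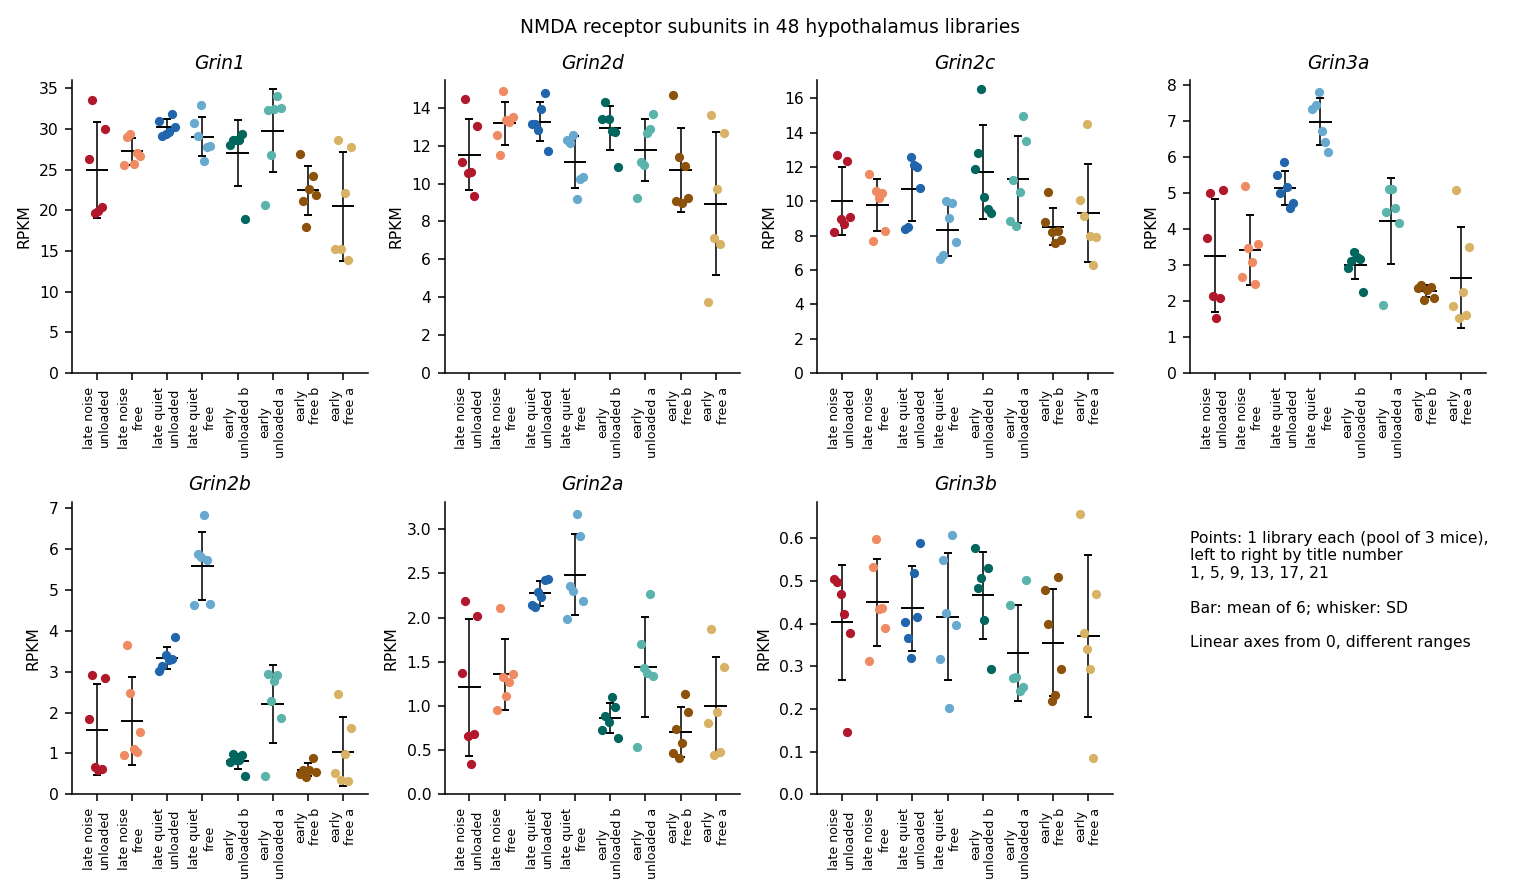
Levels of the 7 subunit transcripts in RPKM (vertical axes, linear from 0, with different ranges) in the 8 series. Each point is 1 library in the order of title number, the bar is the mean of 6 and the whisker the SD. Grin2b and Grin3a are highest in the late quiet free-moving series, where Grin2b lies between 4.63 and 6.83 RPKM and Grin3a between 6.15 and 7.81 RPKM.

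The genes differ in size and place. On GRCm38, with GENCODE M21 annotation, Grin1 (ENSMUSG00000026959.13) lies on chromosome 2 from 25291181 to 25319187, minus strand, and spans 28.0 kb. Grin2a (ENSMUSG00000059003.12) lies on chromosome 16 from 9567898 to 9995560, minus strand, and spans 427.7 kb. Grin2b (ENSMUSG00000030209.14) lies on chromosome 6 from 135713233 to 136173511, minus strand, and spans 460.3 kb. Grin2c (ENSMUSG00000020734.13) lies on chromosome 11 from 115249169 to 115267243, minus strand, and Grin2d (ENSMUSG00000002771.12) on chromosome 7 from 45831883 to 45878378, minus strand. Grin3a (ENSMUSG00000039579.15) lies on chromosome 4 from 49661611 to 49845744, minus strand, and Grin3b (ENSMUSG00000035745.9) on chromosome 10 from 79970715 to 79977190, plus strand. Grin2b, Grin2a and Grin3a are the genes with the longest spans, and their exons, in the length the RPKM values imply, come to 24564, 15084 and 12275 bases. The lengths of the others are shorter, at 8393 bases for Grin1, 6015 for Grin2d, 4946 for Grin2c and 3223 for Grin3b. The antisense gene Grin1os overlaps Grin1, and the sources used here do not give the strand of counting, so reads of the 2 cannot be told apart.

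Grin2b, Grin3a and Grin2a were higher in the late than in the early period, in free-moving and in unloaded quiet mice. Grin2b was at 4.63, 5.77 and 6.83 RPKM (lowest, median, highest of 6) in late quiet free-moving libraries, against 0.339, 0.576 and 2.45 RPKM (of 12) in early free-moving libraries. The groups did not overlap. On log2(RPKM + 0.5) the rise was 2.30 ± 0.23 (SE; limma, adjusted p = 2.22e-11), which lay above 99.6% of all tested genes. Grin3a was at 6.15, 7.04 and 7.81 RPKM in late quiet free-moving libraries, against 1.54, 2.28 and 5.10 RPKM in early free-moving ones. It rose by 1.39 ± 0.17 (limma, adjusted p = 2.13e-09), again without overlap. Grin2a was at 1.99, 2.33 and 3.17 RPKM in late quiet free-moving libraries, against 0.406, 0.778 and 1.87 RPKM in early free-moving ones, and rose by 1.19 ± 0.17 (limma, adjusted p = 8.16e-08), also without overlap. Each of the 3 was higher at 6 of 6 title numbers. How many of all genes lacked overlap or agreed at 6 of 6 numbers was not counted, here or in the comparisons below.

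Grin1 rose less, by 0.46 ± 0.12 (limma, adjusted p = 0.00087), a value close to the median of all tested genes, 0.43. Relative to that median Grin2b stood at 1.88, Grin3a at 0.96, Grin2a at 0.77 and Grin1 at 0.03. Grin2c differed by -0.08 (adjusted p = 0.57) and Grin2d by 0.24 (adjusted p = 0.13), which did not pass. With quantile normalization, which takes the shift of all genes out, Grin2c fell by 0.58 and Grin2d by 0.24, both called; adjusted for the mitochondrial share, the values were -0.26 and -0.25, not called. In this comparison 4 of 6 tested subunits were called, and 78.5% of all tested genes were. The mitochondrial share was lower in late quiet free-moving than in early free-moving libraries, with no overlap. Adjusted for that share, a fit that called 45.3% of all genes, Grin2b (0.88) and Grin3a (0.30) remained called, Grin2a was at 0.21 and not called, and Grin1 turned to -0.25.

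In unloaded mice the late libraries were again higher, by smaller amounts. Grin2b was at 3.02, 3.30 and 3.84 RPKM (of 6) in late quiet unloaded libraries, against 0.459, 0.967 and 2.94 RPKM (of 12) in early unloaded ones. It rose by 1.09 ± 0.23 (limma, adjusted p = 0.00077), with no overlap. Grin2a was at 2.12, 2.26 and 2.44 RPKM in late quiet unloaded libraries, against 0.537, 1.05 and 2.27 RPKM in early unloaded ones, and rose by 0.80 ± 0.17 (limma, adjusted p = 0.00094). Grin3a was at 4.59, 5.09 and 5.85 RPKM in late quiet unloaded libraries, against 1.90, 3.29 and 5.11 RPKM in early unloaded ones, and rose by 0.50 ± 0.17 (limma, adjusted p = 0.016). The other tested subunits had differences from -0.09 (Grin2c) to 0.11 (Grin2d) and did not pass, so 3 of 6 were called, with 47.3% of all tested genes. With quantile normalization Grin3a was at 0.22 and not called, and Grin1 and Grin2d turned to -0.01 and -0.09; adjusted for the mitochondrial share Grin3a was at 0.03 and not called. None of the 3 was called without the 7 late quiet libraries that carry high thalamic markers, described with Grin2c, which leaves 2 late quiet unloaded libraries; that fit called 2 of all genes, and Grin2b was at 0.86, Grin2a at 0.64 and Grin3a at 0.41.

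The same 3 subunits were lower in noise-exposed than in quiet late mice. In free-moving mice Grin2b was at 0.968, 1.33 and 3.66 RPKM in noise libraries (of 6), against 4.63, 5.77 and 6.83 RPKM in quiet libraries. It fell by 1.51 ± 0.26 (limma, adjusted p = 9.39e-06), with no overlap between the groups. Grin3a was at 2.47, 3.28 and 5.20 RPKM in noise libraries, against 6.15, 7.04 and 7.81 RPKM in quiet libraries. It fell by 0.96 ± 0.20 (limma, adjusted p = 8.37e-05), with no overlap. Grin2a was at 0.958, 1.30 and 2.11 RPKM in noise libraries, against 1.99, 2.33 and 3.17 RPKM in quiet libraries, and fell by 0.70 ± 0.20 (limma, adjusted p = 0.0033). These falls held at 6 of 6 title numbers for each of the 3 genes.

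Grin1 (-0.09, adjusted p = 0.60), Grin2c (0.23, adjusted p = 0.21) and Grin2d (0.24, adjusted p = 0.21) did not pass in free-moving mice. With quantile normalization Grin2c and Grin2d were called higher, each by 0.44, and with the mitochondrial covariate Grin1 was called higher by 0.35 and Grin2d by 0.54. The main test called 3 of 6 subunits and 57.6% of all genes, whose median was -0.15. The mitochondrial share was higher in noise than in quiet free-moving libraries, without overlap. With it as a covariate, where 49.1% of all genes were called, Grin2b (-0.62) and Grin3a (-0.29) remained called and Grin2a (-0.09) did not. Grin2a was also not called after removal of a trend with exon length (-0.32).

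In unloaded mice Grin2b was at 0.593, 1.25 and 2.92 RPKM in noise libraries, against 3.02, 3.30 and 3.84 RPKM in quiet libraries. It fell by 1.06 ± 0.26 (limma, adjusted p = 0.0034), with no overlap. Grin2a was at 0.344, 1.03 and 2.19 RPKM in noise libraries, against 2.12, 2.26 and 2.44 RPKM in quiet libraries, and fell by 0.82 ± 0.20 (limma, adjusted p = 0.0031) at 5 of 6 title numbers. Grin3a was at 1.54, 2.94 and 5.09 RPKM in noise libraries, against 4.59, 5.09 and 5.85 RPKM in quiet libraries, and fell by 0.69 ± 0.20 (limma, adjusted p = 0.0058) at 4 of 6. The noise libraries of unloaded mice were spread widely: Grin3a was at 3.75, 5.01 and 5.09 RPKM in numbers 1, 5 and 21 and at 2.14, 1.54 and 2.07 RPKM in numbers 9, 13 and 17, where the mitochondrial share was 46.9%, 50.04% and 47.4%. Grin1, Grin2c and Grin2d had differences from -0.30 to -0.10 that did not pass (adjusted p = 0.071 for Grin1), and quantile normalization turned Grin2c to 0.18 and Grin2d to 0.07. In total 3 of 6 subunits were called, with 52.3% of all genes. After adjustment for the mitochondrial share 0 of all genes were called, and without the 7 libraries with high thalamic markers 0 of all genes were called too (Grin2b -0.83, Grin2a -0.67, Grin3a -0.60). The comparisons of late quiet free-moving mice with early, with noise and with unloaded mice share that 1 series, and those of late quiet unloaded mice share theirs.

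**Figure D2:**
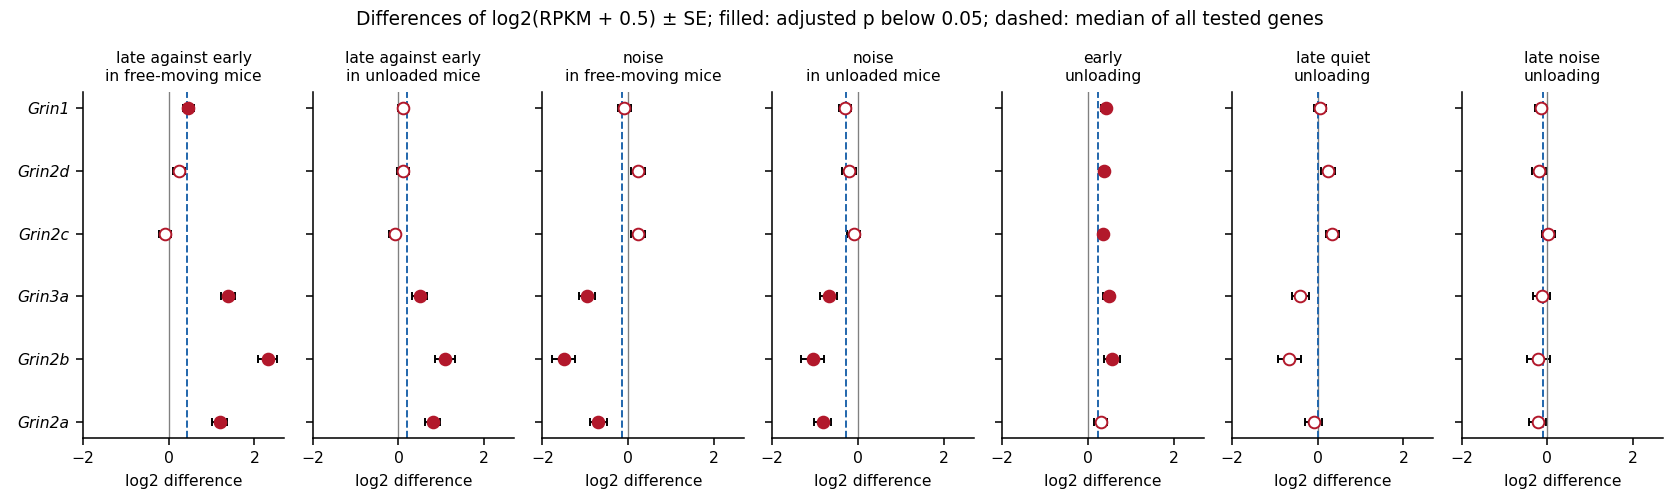
Differences of log2(RPKM + 0.5) for the 6 tested subunits in 7 comparisons, with SE as whiskers, filled points at an adjusted p below 0.05 and the median of all tested genes as a dashed line. Grin2b has the widest range of values, from 2.30 (late against early in free-moving mice) to -1.51 (noise in free-moving mice).

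Hind limb unloading went with higher subunit levels in the early period. Grin1 was at 18.9, 28.7 and 34.1 RPKM (lowest, median, highest of 12) in early unloaded libraries, against 13.8, 22.0 and 28.7 RPKM (of 12) in early free-moving libraries. It rose by 0.41 ± 0.10 (limma, adjusted p = 0.0043). Grin2d was at 9.24, 12.8 and 14.3 RPKM in unloaded libraries, against 3.72, 9.46 and 14.7 RPKM in free-moving ones, and rose by 0.38 ± 0.12 (limma, adjusted p = 0.0097). The groups overlapped for every subunit. Grin2c was at 8.54, 10.9 and 16.5 RPKM in unloaded libraries, against 6.30, 8.25 and 14.5 RPKM in free-moving ones, and rose by 0.35 ± 0.11 (limma, adjusted p = 0.011). Grin3a rose by 0.48 ± 0.14 (limma, adjusted p = 0.0071) and Grin2b by 0.56 ± 0.19 (limma, adjusted p = 0.014). Grin2a (0.30 ± 0.14, limma, adjusted p = 0.073) did not pass. So 5 of 6 subunits were called, each higher at 6 of 6 title numbers, beside 52.8% of all genes. Of all called genes 96.4% were higher, and the median of all genes was 0.23. With quantile normalization 54.6% of the called genes were higher, and after removal of the mitochondrial genes with equal sums 80.6% were. The mitochondrial share was lower in unloaded than in free-moving early libraries. With it as a covariate 1 of all 13685 genes was called, not a subunit, and Grin2b stood at -0.07. No subunit was called when title number 9 or title number 17 was left out in all series, fits that called 21 and 0 of all genes. Early unloaded series a number 9 carried pituitary markers at a sum of 12131 RPKM, against 2.00 to 66.1 RPKM in every other library. Without that 1 library 5 subunits and 41.7% of all genes were called.

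In late quiet mice the direction of Grin2b and Grin3a under unloading was the opposite. Grin2b was at 3.02, 3.14, 3.41, 3.29, 3.31 and 3.84 RPKM in late quiet unloaded libraries (title numbers 1 to 21), against 4.63, 5.89, 5.82, 6.83, 5.73 and 4.65 RPKM in late quiet free-moving libraries. Every unloaded library was below every free-moving one. The difference was -0.66 ± 0.26 (limma, adjusted p = 0.088), which did not pass in the fit over all 48 libraries. Grin3a averaged 5.14 ± 0.477 RPKM in unloaded libraries and 6.98 ± 0.651 RPKM in free-moving libraries (SD, n = 6 each), also without overlap, with a difference of -0.41 ± 0.20 (limma, adjusted p = 0.16). In a fit of these 2 series alone, which called 51.9% of all genes, both were called (limma, adjusted p = 8.11e-05 for Grin2b and 0.00011 for Grin3a), as were Grin2c (0.34) and Grin2d (0.25), both higher in unloaded mice. Both Grin2b and Grin3a were also called lower with quantile normalization, with equal sums without mitochondrial genes and with the mitochondrial covariate. The 7 libraries with high thalamic markers all belong to these 2 series. The fit without them called 23 of all genes (0.168%) for late quiet unloading. Grin1 differed by 0.06 and Grin2a by -0.10. The fit over all libraries called 0 of 6 subunits, with 3 at an unadjusted p under 0.05, and 12.8% of all genes.

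The unloading difference itself differed between the periods for these 2 genes. The late quiet difference less the early one was -1.22 ± 0.32 for Grin2b (limma, adjusted p = 0.0064) and -0.89 ± 0.24 for Grin3a (limma, adjusted p = 0.0071). These were the 2 of 6 subunits called, with 33.5% of all genes, whose median was -0.22. Grin1 (-0.36), Grin2a (-0.39), Grin2d (-0.13) and Grin2c (-0.00) did not pass. With the mitochondrial covariate, and likewise without the 7 libraries with high thalamic markers, neither gene was called, where these fits called 12.9% and 0.227% of all genes; without those libraries Grin2b was at -1.19 and Grin3a at -0.86. In late noise-exposed mice no subunit differed with unloading past the threshold, nor at an unadjusted p under 0.05, with differences from -0.22 (Grin2a) to 0.02 (Grin2c); 0.0146% of all genes were called there. The test of whether unloading differed between noise and quiet called 0 of 6 subunits, none at an unadjusted p under 0.05, and 4.38% of genes. For Grin2b that difference was 0.45 ± 0.37 (limma, adjusted p = 0.58).

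A factor common to all genes of a library hardly changes the ratios between its subunit transcripts. Over all libraries Grin2b and Grin3a per Grin1 still correlated with the mitochondrial share, at r = -0.88 and -0.83. No ratio was tested with that share or exon length adjusted. The ratios were compared as log2 of the RPKM ratio with 0.1 added to each, 7 ratios in 7 comparisons. Of these 49, 20 passed after adjustment over all 49. Grin2b per Grin1 averaged 0.111 ± 0.0102 in late quiet unloaded and 0.194 ± 0.0394 in late quiet free-moving libraries (SD, n = 6 each). The difference was -0.78 on the log2 scale (two-sided exact permutation test, adjusted p = 0.0076), without overlap. Grin3a per Grin1 averaged 0.171 ± 0.0190 in late quiet unloaded and 0.241 ± 0.0146 in late quiet free-moving libraries (SD, n = 6 each), a difference of -0.49 (exact permutation test, adjusted p = 0.0076). Grin2a per Grin2b was higher in the unloaded libraries, at 0.683 ± 0.0337, than in the free-moving libraries, at 0.445 ± 0.0449 (SD, n = 6 each), by 0.61 (exact permutation test, adjusted p = 0.0076). The unadjusted p of these 3 was 0.00216, the smallest that 6 against 6 libraries can give.

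Grin2b, Grin3a and Grin2a per Grin1 passed in each of the 4 noise and period comparisons. Grin2b per Grin1 differed by -1.65 between noise and quiet free-moving libraries and by -1.02 between noise and quiet unloaded libraries (exact permutation test, adjusted p = 0.0076 for each). Grin3a per Grin1 differed by -0.95 (adjusted p = 0.0076) in free-moving and by -0.47 (adjusted p = 0.045) in unloaded mice under the same exact permutation test. Grin2a per Grin1 differed by -0.76 (adjusted p = 0.019) in free-moving and by -0.79 (adjusted p = 0.0076) in unloaded mice, again by the exact permutation test. Late against early, Grin2b per Grin1 was higher by 2.37 in free-moving mice (permutation test with 100000 resamples, adjusted p = 0.00082) and by 1.24 in unloaded mice (adjusted p = 0.0074). Grin2a per Grin1 was higher by 1.08 in free-moving (adjusted p = 0.0016) and by 0.91 in unloaded mice (adjusted p = 0.0015). Grin2a per Grin2b differed in free-moving mice, by 0.89 with noise (exact permutation test, adjusted p = 0.0076) and by -1.28 late against early (adjusted p = 0.00082). In unloaded mice it was at 0.23 with noise and -0.33 late against early and did not pass (permutation test, adjusted p = 0.18 for each). Grin2d per Grin1 moved little, by 0.20 with late quiet unloading (exact permutation test, adjusted p = 0.024) and by 0.34 with noise in free-moving mice (adjusted p = 0.019). These calls held in 4 and 3 of 8 alternatives. Grin2c per Grin1 differed by -0.56 late against early in free-moving mice (permutation test with 100000 resamples, adjusted p = 0.049). That call held in 1 of 8 alternatives. No ratio passed for early unloading or for late noise unloading, and Grin3b per Grin1 passed in none of the 7 comparisons. With 0.5 added in place of 0.1, 22 ratios passed, among them Grin3b per Grin1 for early unloading (-0.35, permutation test, adjusted p = 0.042) and Grin2a per Grin2b for noise in unloaded mice (0.24, exact permutation test, adjusted p = 0.013). Swapping labels only within title numbers, which lets 6 pairs reach 0.0312 at best, left 7 of the 20, all of them late against early.

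**Figure D3:**
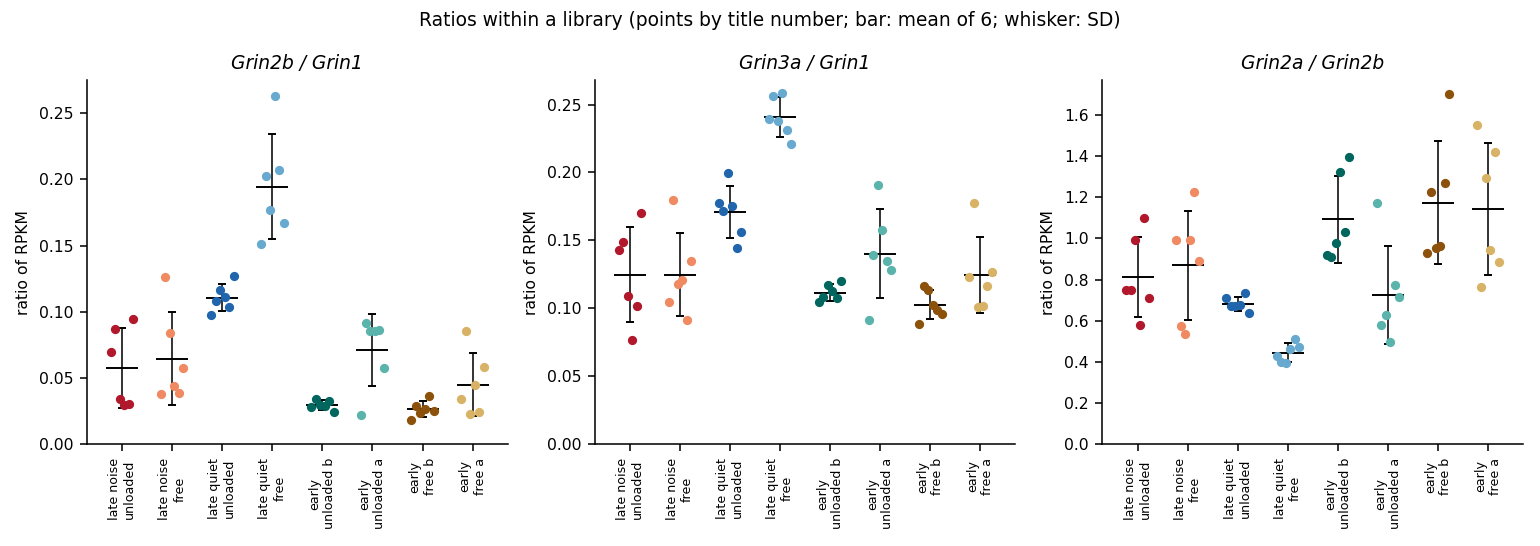
Ratios of RPKM within a library for Grin2b per Grin1, Grin3a per Grin1 and Grin2a per Grin2b, 1 point per library, with the mean of 6 as a bar and the SD as a whisker. In the late quiet free-moving series Grin2b per Grin1 averages 0.194 and Grin2a per Grin2b 0.445, and the late quiet unloaded series lies apart from it in all 3 panels.

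The subunits that moved with period and noise were those that followed the mitochondrial share most closely over all libraries. Over the 48 libraries log2 Grin3a correlated with the log2 odds of the share at r = -0.96 (rho = -0.95, permutation p = 1e-05, the smallest the 100000 resamples give, adjusted p = 1.62e-05). Without the 2 libraries farthest from the median, r was -0.95, and within the 8 series it lay between -0.99 and -0.39. For Grin2b r was -0.93 and rho -0.91 (permutation p = 1e-05), -0.92 without the 2 farthest libraries, and negative in 6 of 8 series. In the 2 late quiet series it was positive, at 0.94 in unloaded and 0.44 in free-moving libraries. Grin2a had r = -0.89 and rho = -0.88 (permutation p = 1e-05), -0.89 without the 2 farthest, and was negative in 5 of 8 series. Grin1 had r = -0.82 and rho = -0.82 (permutation p = 1e-05), -0.80 without the 2 farthest, and was negative in 8 of 8. Grin2d followed more loosely (r = -0.46, rho = -0.43, permutation p = 0.00038, -0.41 without the 2 farthest). Grin2c did not follow it past the threshold (r = -0.10, rho = -0.07, permutation p = 0.495), nor did Grin3b (r = -0.21, rho = -0.16, permutation p = 0.152). Of the ratios, Grin2b per Grin1 had r = -0.88 and rho = -0.87 (permutation p = 1e-05), -0.88 without the 2 farthest, and was negative in 5 of 8 series. Grin2c per Grin1 had r = 0.59 and rho = 0.63 (permutation p = 1e-05), 0.58 without the 2 farthest, and was positive in 8 of 8. These belong to a family of 13 relations, 7 of genes and 6 of ratios. The share is made from the same RPKM values as the levels, so a gene's level and the share are not independent. The permutations shuffled all 48 libraries without regard to series, and their p-values test r against 0, not against the typical gene. With series means removed, r was -0.92 for Grin3a, -0.87 for Grin2b, -0.83 for Grin1 and -0.78 for Grin2a.

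Most genes share this relation. The median r with the mitochondrial share over all tested genes was -0.73. Of all genes 2.21% had a lower r than Grin3a, 9.53% a lower one than Grin2b, 21.3% than Grin2a and 38.3% than Grin1. The relation also went with exon length: the median r was 0.08 for 1782 genes with exons under 2 kb and -0.88 for 802 genes over 12 kb. That longest bin holds Grin2b, Grin2a and Grin3a. For late quiet unloading the median difference was 0.25 in the shortest bin and -0.16 in the longest, against -0.66 for Grin2b, -0.41 for Grin3a and -0.10 for Grin2a. After a trend with exon length was removed from every library, Grin2b stood at -0.47 and Grin3a at -0.25 in that comparison. In late against early free-moving mice they stood at 1.60 and 0.92, and both were called in this second comparison. The part of RNA quality in these differences was not tested.

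**Figure D4:**
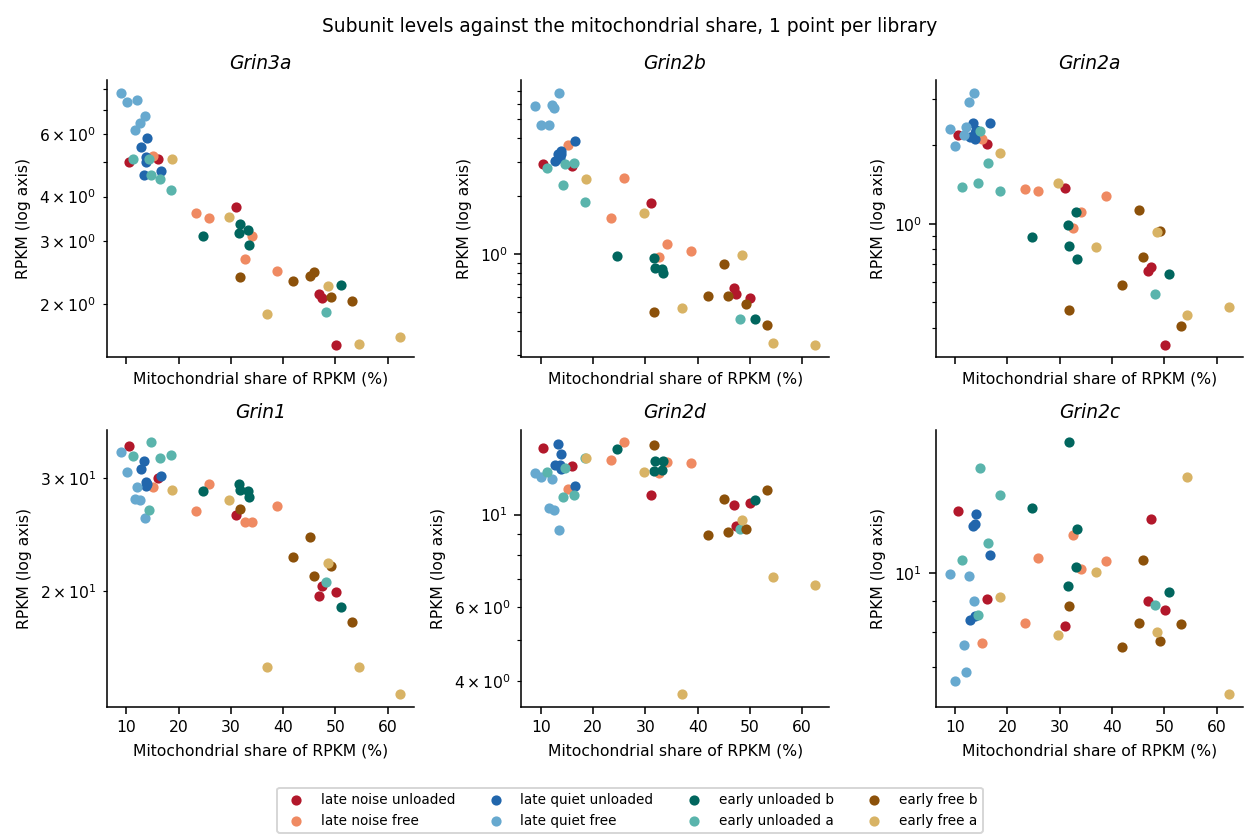
Levels of 6 subunits (RPKM, log axes) against the share of all RPKM in the 13 mitochondrial genes (percent), 1 point per library, coloured by series. Grin3a (r = -0.96) and Grin2b (r = -0.93) fall along the whole range of the share, whereas Grin2c (r = -0.10) does not.

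Grin2c stood apart from the other subunits in its pattern over libraries. Across the 48 libraries its level correlated with the other tested subunits at r between -0.04 and 0.24, while Grin2b, Grin2a and Grin3a correlated with each other at 0.92 to 0.96 and Grin1 with Grin2d at 0.79. These libraries share the mitochondrial share as a common variable, and the values are given as a description. Markers of some neighbouring brain regions varied between pools along with Grin2c, and those of cortex and hippocampus with other subunits, described at the end. In the late quiet series the summed level of 8 thalamic markers was above 90 RPKM in late quiet unloaded libraries 9, 13, 17 and 21 and in late quiet free-moving libraries 9, 13 and 17. Grin2c was at 12.6, 12.1, 11.99 and 10.7 RPKM in those 4 unloaded libraries and at 8.38 and 8.50 RPKM in unloaded libraries 1 and 5. It was at 9.99, 8.998 and 9.89 RPKM in the 3 free-moving libraries and at 6.63, 6.87 and 7.60 RPKM in free-moving libraries 1, 5 and 21. So in both series every library with high thalamic markers had more Grin2c than every library without, and at each of the 6 numbers the unloaded library was above the free-moving one. The thalamic sum was between 21.3 and 55.2 RPKM in the other 6 series.

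Cerebellar markers were above 10 RPKM in sum in 5 libraries and between 0.196 and 2.48 RPKM in the rest. Early free-moving series a number 9 had the highest sum, 59.3 RPKM, and the highest Grin2c of its series, 14.5 RPKM. Early unloaded series b number 9 had a sum of 27.4 RPKM and the highest Grin2c of all libraries, 16.5 RPKM. The other 3 did not have the highest Grin2c of their series. Late noise unloaded number 17 had a sum of 40.4 RPKM and Grin2c at 12.3 RPKM, below the 12.7 RPKM of number 5. Early unloaded series a numbers 1 and 21 had sums of 14.7 and 13 RPKM with Grin2c at 8.88 and 13.5 RPKM, the second lowest and the second highest of that series. After the series mean and the mitochondrial share were removed, Grin2c correlated with the thalamic markers at r = 0.41 and rho = 0.49 (permutation test, n = 48, adjusted p = 0.012 and 0.0037 over 36 relations), and at 0.33 without the 2 farthest libraries. With the cerebellar markers r was 0.55 (permutation test, n = 48, adjusted p = 0.00072), rho was 0.30 (adjusted p = 0.10) and r without the 2 farthest libraries was 0.39. With the striatal markers r was 0.33 and rho 0.40 (permutation test, n = 48, adjusted p = 0.048 and 0.020), and r without the 2 farthest libraries was 0.27. Within series, the thalamic relation was positive in 6 of 8, the cerebellar one in 7 of 8 and the striatal one in 7 of 8. The 5 libraries with cerebellar markers belong to early and late noise series. Leaving them out removed no late quiet library. In that fit Grin2b passed for late quiet unloading (limma, adjusted p = 0.048), as did 15.4% of all genes.

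**Figure D5:**
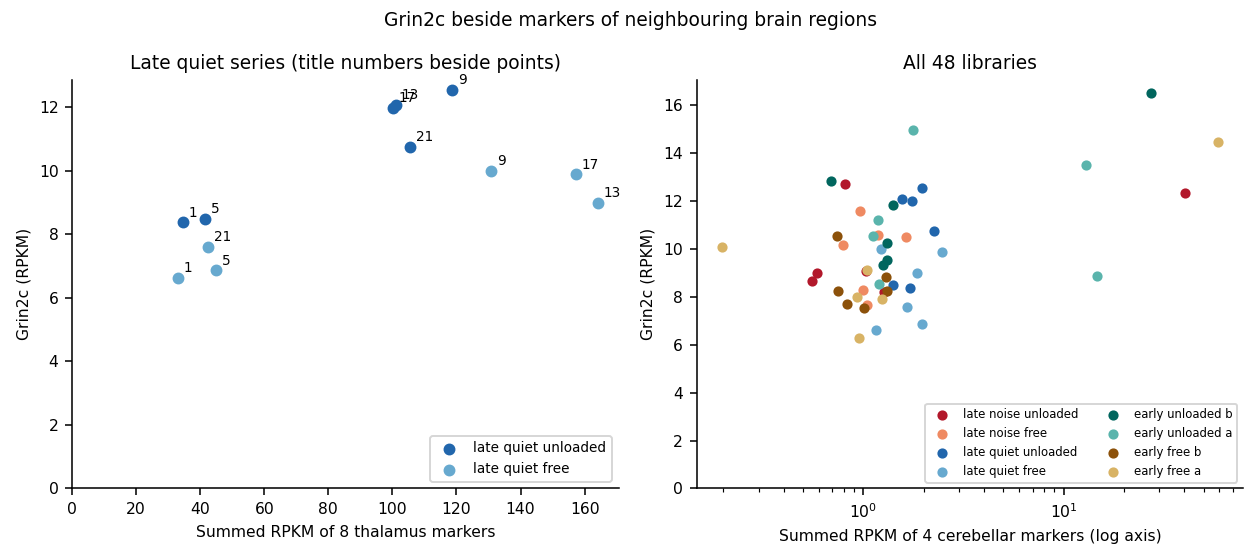
Grin2c (RPKM) against the summed RPKM of 8 thalamic markers in the 2 late quiet series, with title numbers beside the points (left), and against the summed RPKM of 4 cerebellar markers in all 48 libraries on a log axis (right). The 7 libraries with thalamic sums above 90 RPKM have the highest Grin2c of their series, and 5 libraries have cerebellar sums above 10 RPKM.

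Genes whose products act with the receptor moved mostly in the direction of Grin2b with period and noise. Of 14 scaffold and auxiliary genes of the postsynaptic density, 13 rose and 0 fell in late against early free-moving mice, with a list median of 1.00 against 0.43 for all genes, of which 60.5% rose and 18% fell. With noise in free-moving mice 1 rose and 9 fell (median -0.45 against -0.15 for all genes, of which 21.2% rose and 36.4% fell). The counts of the lists that follow stand beside those same shares and medians of all genes. Dlg2, which encodes the scaffold PSD-93, rose by 1.36 ± 0.14 late against early (limma, adjusted p = 9.49e-11) and fell by 0.97 ± 0.17 with noise (limma, adjusted p = 6.50e-06). Homer1, a linker between glutamate receptor complexes, rose by 1.06 and fell by 0.70. Neto1, an auxiliary protein of NMDA and kainate receptors, fell by 0.83 with noise (limma, adjusted p = 0.00082).

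Of 12 kinase and phosphatase genes, 10 rose and 1 fell late against early in free-moving mice (median 0.71), and 1 rose and 8 fell with noise (median -0.45). Camk2d, a subunit of calcium/calmodulin-dependent kinase II, rose by 1.17 and fell by 0.82. Fyn, a kinase that phosphorylates GluN2B, rose by 0.74 and fell by 0.62. Cdk5, a kinase that acts on GluN2 subunits, went the other way: it rose by 0.48 ± 0.09 with noise (limma, adjusted p = 1.50e-05), and by 0.33 with late quiet unloading (limma, adjusted p = 0.0086), and fell by 0.40 late against early. Of 9 calcium effectors, 8 rose and 0 fell late against early in free-moving mice (median 1.02), and 0 rose and 8 fell with noise (median -0.60). Adcy1, a calmodulin-stimulated adenylyl cyclase, rose by 1.72 and fell by 1.23. Nos1, the neuronal nitric oxide synthase tethered to the receptor, rose by 1.51 and fell by 0.78.

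Of 13 tested genes of glutamate and co-agonist supply, 10 rose and 1 fell late against early in free-moving mice (median 0.67), and 1 rose and 8 fell with noise (median -0.51). Slc1a2, the main astrocytic glutamate transporter, rose by 1.72 ± 0.18 late against early (limma, adjusted p = 8.20e-11) and fell by 1.25 ± 0.21 with noise (limma, adjusted p = 4.89e-06). Slc6a9, the glycine transporter GlyT1, rose by 1.15 and fell by 0.78. Slc17a6, the vesicular glutamate transporter of subcortical neurons, rose by 1.65 and fell by 1.20. Shmt2, a mitochondrial enzyme that makes glycine, rose by 0.29 with noise and by 0.29 with late quiet unloading (limma, adjusted p = 0.034). With early unloading 12 scaffold, 9 kinase or phosphatase, 7 calcium effector and 7 supply genes rose and 0 of these lists fell, where 50.9% of all genes rose and 1.88% fell. Late quiet unloading called 3 genes over the 4 lists, Cdk5, Shmt2 and Begain, a postsynaptic density protein (0.35, limma, adjusted p = 0.031), all higher. Of all genes 9.38% were called higher there and 3.38% lower. The list medians were -0.12 (scaffold), -0.11 (kinase and phosphatase), -0.31 (calcium effector) and -0.18 (supply), against 0.02 for all genes.

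Markers of cell types and of neighbouring regions moved alongside. Of 8 neuronal markers, 7 rose and 0 fell late against early in free-moving mice (median 1.01), and 0 rose and 6 fell with noise (median -0.57). Of 6 astrocyte markers, 5 rose and 1 fell late against early (median 1.19), and 1 rose and 5 fell with noise (median -0.81), where 60.5% and 21.2% of all genes rose and 18% and 36.4% fell. Aqp4, the astrocytic water channel, fell by 0.58 with late quiet unloading (limma, adjusted p = 0.018), and the summed astrocyte markers lay between 284 and 334 RPKM in late quiet unloaded and between 362 and 404 RPKM in late quiet free-moving libraries. The 9 hypothalamic markers, among them Avp, Oxt and Agrp, summed to between 2338 and 3759 RPKM in late quiet unloaded and between 1547 and 2572 RPKM in late quiet free-moving libraries, and to at least 3157 RPKM in every library of the other 6 series. Of these 9, 5 rose and 1 fell with noise in free-moving mice (median 0.87), and 3 rose and 4 fell late against early in free-moving mice (median -0.31). Of 8 thalamic markers, 0 rose and 5 fell with noise in free-moving mice (median -0.91), and 6 rose and 0 fell late against early (median 1.11). By median, the 2 late quiet series thus had the lowest hypothalamic and the highest thalamic sums, along with the highest Grin2b and Grin3a means. Not all of their libraries had high thalamic sums. The sum was 32.9, 44.8 and 42.3 RPKM in free-moving numbers 1, 5 and 21, with Grin2b at 4.63, 5.89 and 4.65 RPKM. In unloaded numbers 1 and 5 it was 34.5 and 41.6 RPKM, with Grin2b at 3.02 and 3.14 RPKM. Avp and Oxt had the highest means of the 9 hypothalamic markers, 3230 and 1570 RPKM over all libraries. The part of tissue or cell composition in the subunit differences was not tested.

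No subunit showed a daily course. A sine and cosine over the 6 title numbers with a period of 24 called 0 of 6 tested subunits, with 0 at an unadjusted p under 0.05, beside 1.76% of all genes. Fitted amplitudes were 0.03 (Grin2d) to 0.13 (Grin3a) on the log2 scale, where the median gene had 0.08, and adjusted p-values (limma) were between 0.60 and 0.94. A course that differed between series was called for 0 of 6 subunits, 0 at an unadjusted p under 0.05, and 0% of genes. Without title number 1 Grin3a was called in that test.

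Because the sampling covered 6 numbers, the promoters of the subunits were searched for CACGTG, the E-box bound by the clock activators CLOCK and BMAL1, and AGGTCA, the core of the site bound by ROR and REV-ERB receptors, on both strands. Promoter windows of 300 bases (250 before to 50 after the RefSeq start, GRCm38.p6) were at hand for 4 of the 7 genes: Grin1, Grin2c, Grin2d and Grin3b. Grin1 and Grin2c are shown because they hold a match, in capitals. The Grin1 window is chr2:25319138-25319437, minus strand, and the Grin2c window chr11:115267194-115267493, minus strand.
Grin1 promoter: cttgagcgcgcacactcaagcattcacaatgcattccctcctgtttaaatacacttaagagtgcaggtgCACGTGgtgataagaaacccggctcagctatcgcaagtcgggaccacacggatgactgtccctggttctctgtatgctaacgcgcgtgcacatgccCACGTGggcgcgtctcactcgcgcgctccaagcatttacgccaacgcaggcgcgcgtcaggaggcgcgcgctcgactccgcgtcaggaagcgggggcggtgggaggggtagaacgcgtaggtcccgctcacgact
Grin2c promoter: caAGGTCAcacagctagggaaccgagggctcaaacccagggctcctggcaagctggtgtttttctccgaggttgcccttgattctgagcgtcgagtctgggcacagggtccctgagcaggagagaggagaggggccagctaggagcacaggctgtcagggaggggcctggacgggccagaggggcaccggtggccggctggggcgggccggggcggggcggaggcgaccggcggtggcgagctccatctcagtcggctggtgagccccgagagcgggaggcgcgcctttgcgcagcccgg
Grin1 holds 2 E-boxes, whose first bases lie at positions -181 and -85 relative to the start base as 0. Of 32851 promoters, 7.15% hold at least 1 E-box and 0.594% hold 2 or more. Grin2c holds 1 AGGTCA at position -248, a motif found in 16.3% of promoters. Grin2d and Grin3b hold neither. The Grin2d window, chr7:45866632-45866931, lies inside the GENCODE gene and not at its start, 45878378 on the minus strand. These letter matches are a description of sequence, and in these libraries Grin1 had a fitted daily amplitude of 0.04 (adjusted p = 0.86) and Grin2c one of 0.09 (adjusted p = 0.67), both from limma.

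Series with identical labels give a measure of the spread between series. Between early free-moving series b and a, 0 of 6 subunits were called, 1 at an unadjusted p under 0.05 (Grin2d, 0.34), and 0.256% of genes. Between early unloaded series b and a, 0 of 6 were called, 2 at an unadjusted p under 0.05 (Grin2b and Grin2a), and 0.833% of genes. Grin2b averaged 0.811 ± 0.186 RPKM in early unloaded series b and 2.21 ± 0.955 RPKM in early unloaded series a (SD, n = 6 each), a difference of -0.94 ± 0.26 (limma, adjusted p = 0.060). That is larger than the early unloading difference of Grin2b, and early unloaded b set against free-moving a or b gave no called subunit, with 0 and 3 of all genes called. The mitochondrial share averaged 34.3% ± 8.80 in early unloaded series b and 20.5% ± 13.7 in series a.

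The genes most like each subunit were ranked by correlation over the 48 libraries, which share the mitochondrial share as a common variable. Pearson's r of log2 levels was highest for Grin2b with Tnr (0.98), Auts2 (0.98) and Myt1l (0.98), for Grin3a with Prickle2 (0.99), Scrn1 (0.98) and Dnajc5 (0.98), and for Grin2a with Kalrn (0.97), Atp2b1 (0.96) and Grm5 (0.96). Grin1 was closest to Atp6v0a1, Bag6 and Lrfn1 (0.96 each) and Grin2d to Gpc1 (0.92), Mau2 (0.92) and Hcn3 (0.91). Grin2c had lower values, with Clec2l (0.73), Calb2 (0.69) and Cabp1 (0.65). After the series means and the mitochondrial share were removed, the closest were Atxn1 (0.87) for Grin2b, Neto1 (0.83) for Grin2a, Etnk1 (0.86) for Grin3a, Psd (0.85) for Grin1, Mast1 (0.89) for Grin2d and Pvalb (0.77) for Grin2c.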

How the data were processed

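The deposited table gives RPKM per gene, made by the authors; per the submitters' processing notes CASAVA 1.8 and HISAT were used, while the sources used here give no HISAT version, build, annotation, counter or strand. RNA was extracted with Trizol and prepared by standard Illumina protocols, per the labels' protocols. All 48 columns were matched to samples by title and 0 were left out. Depth (28.3 M to 55.3 M reads) was recovered from the steps of low values, 82% to 89% of which were whole numbers of reads within 0.02.

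Differences were fitted with limma 3.58.1 in R 4.3.3 on log2(RPKM + 0.5) for 13685 genes with a mean of at least 0.5 RPKM. Folds on this scale understate the change of low genes. All 48 libraries were fitted together, with series and title number as factors (residual degrees of freedom 35, variance trend, Benjamini-Hochberg adjustment over all tested genes, two-sided, threshold 0.05). There were 13 comparisons, including a daily course (sine and cosine, period 24). Early unloading sets the average of the 2 unloaded early series against that of the 2 free-moving ones. Ratios were compared with two-sided permutation tests, exact for 6 against 6 libraries, and otherwise with 100000 resamples. The tests were checked on simulated data.

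The 7 subunits, the gene lists and the tests were chosen with earlier results of these data known. Named genes are all 7 subunits, the 3 genes most correlated with each, and up to 4 called genes per partner list with the smallest p; not all are printed. Alternatives were another pseudocount, no filter, quantile normalization, removal of mitochondrial genes with equal sums, the mitochondrial share as a covariate, only the series compared, no replicate block, each title number left out, single early pairs of series, and fits without 1 early library. Removal of an exon length trend and the fits without 5 or 7 libraries with cerebellar or thalamic markers were chosen after seeing the data. Positions are from GENCODE M21 on GRCm38 and promoters from RefSeq (GRCm38.p6), matched by symbol.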

Additional observations from a re-analysis of the deposited data

Results flagged for a closer look

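In 5 of 56 groups of 6 values (7 subunits in 8 series), 1 library stood apart by Dixon's ratio of gap to range, above its critical value for 6 values; chance gives about 1 in 20. Grin1 was at 18.9 RPKM in early unloaded series b number 21, the next lowest being 28.0 RPKM (ratio 0.876). Grin2b was at 0.461 RPKM in the same library, the next lowest being 0.794 RPKM (ratio 0.647), and the mitochondrial share there was 51.0%. Grin3a was at 1.90 RPKM in early unloaded series a number 1, the next lowest being 4.18 RPKM (ratio 0.711), with a share of 48.2%. Grin2a was at 2.11 RPKM in late noise free-moving number 5, the next highest being 1.36 RPKM (ratio 0.648), with a share of 15.1%. Grin3b was at 0.145 RPKM in late noise unloaded number 17, the next lowest being 0.379 RPKM (ratio 0.651), with a share of 47.4%. The part of the share in these values was not tested.

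The unloading difference was tested between periods, and it differed for Grin2b, by -1.22 (late quiet less early, log2 scale), and for Grin3a, by -0.89.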

How the results depend on the processing

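Of 350 alternative values for the called subunit differences, 291 kept their direction and call, 56 kept the direction only and 3 reversed; Grin2b and Grin3a held under noise in free-moving mice and late against early in free-moving mice in every alternative run. The reversals were Grin2b for early unloading at -0.07 with the mitochondrial covariate and -0.08 for early unloaded b set against early free-moving a, and Grin1 late against early in free-moving mice at -0.25 with the covariate. Beside each number of called subunits stands the share of all genes called in the same fit. For early unloading 5 subunits were called (52.8%); it was 2 with quantile normalization (20.3%), 3 with equal sums (27%), 0 with the covariate (0.00731%), 0 for unloaded b set against free-moving a (0%) or b (0.0219%), and 0 to 6 with a title number left out (0% to 64.7%). For late quiet unloading it was 0 (12.8%), then 2 with quantile normalization (28.6%), 2 with equal sums (21%), 2 with the covariate (29.6%), 4 with only the series compared (51.9%) and 1 without the cerebellar marker libraries (15.4%). For noise in free-moving mice it was 3 (57.6%) and 5 with quantile normalization (65.1%). For noise in unloaded mice it was 3 (52.3%), 0 with the covariate (0%) and 0 without the thalamic marker libraries (0%). It was 2 to 4 there with a title number left out (9.36% to 56.4%). Late against early it was 4 in free-moving mice (78.5%) and 2 with the covariate (45.3%). Late against early in unloaded mice it was 3 (47.3%), 0 without the thalamic marker libraries (0.0146%) and 2 to 3 with a title number left out (33.6% to 44.3%). For unloading by period it was 2 (33.5%), 0 with the covariate (12.9%) and 0 without the thalamic marker libraries (0.227%). Between the early unloaded series with identical labels it was 0 (0.833%), 1 with quantile normalization (11.5%), 1 with equal sums (7.74%) and 1 with only the series compared (2.24%). It was 3 without the cerebellar marker libraries (45.5%) and 0 to 3 with a title number left out (0% to 39.2%), the 3 without number 1 (39.2%). The daily course by series had 0 (0%), or 1 without number 1 (3.87%). The cause of these changes was not tested, beyond the fewer libraries in some fits.

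The share of called genes that were higher was 73.5% for late quiet unloading, 49.5% with quantile normalization and 39.5% with equal sums. It was 36.8% for noise in free-moving mice, 47.7% with quantile normalization and 77.1% with the covariate; for noise in unloaded mice it was 12.9% and 46.1% with quantile normalization. Late against early it was 77.1% in free-moving mice, 52.5% with quantile normalization and 35.1% with the covariate, and 82.0% in unloaded mice, 52.5% with quantile normalization and 36% with the covariate.

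Without the replicate block the counts were the same, given here with the share of all genes called. They were 5 for early unloading (48.9%), 3 for noise in free-moving mice (55.8%) and 3 in unloaded mice (49.5%). Late against early they were 4 in free-moving mice (77.9%) and 3 in unloaded mice (44.4%), and for unloading by period 2 (28.5%). The deviations of same-numbered libraries from their series means had a median r of 0.0802 over 168 pairs, 44.6% of them above 0.1, against -0.0171 over 840 other pairs, 26% above 0.1. Same-numbered libraries thus deviated together somewhat more often, but not in every pair, and the labels do not say what a number shares. With 0.5 added to each RPKM 22 ratios passed. With the replicate block, 7 of the 20 ratio calls remained, 6 pairs allowing no p below 0.0312; with a title number left out, 16 to 19 ratios passed. Grin3b, at 9 to 77 reads, is limited by depth.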

Other observations

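The markers of neurons and astrocytes varied with some subunits also after the series means and the mitochondrial share were removed (48 libraries, a family of 36 relations). Grin2b correlated with the mean log level of 8 neuronal markers at r = 0.73 and rho = 0.66 (permutation test, adjusted p = 9e-05 and 0.00018), at 0.66 without the 2 farthest libraries, and the levels were positively related in 8 of 8 series. Grin2a correlated with them at r = 0.67 and rho = 0.73 (permutation test, adjusted p = 9e-05 and 0.00018), at 0.70 without the 2 farthest, and in 8 of 8 series. Grin3a correlated with the neuronal markers at r = 0.63 and rho = 0.55 (permutation test, adjusted p = 9e-05 and 0.0018), at 0.54 without the 2 farthest, and in 6 of 8 series. It correlated with 6 astrocyte markers at r = 0.64 and rho = 0.51 (permutation test, adjusted p = 9e-05 and 0.0021), at 0.48 without the 2 farthest, and in 7 of 8 series. Grin2b and Grin2a also passed with the astrocyte markers, at r = 0.47 and rho = 0.37 (permutation test, adjusted p = 0.0029 and 0.032) and at r = 0.42 and rho = 0.39 (permutation test, adjusted p = 0.0089 and 0.022). Grin1, with r = 0.56 and rho = 0.47 for the neuronal markers (permutation test, adjusted p = 0.00058 and 0.0045), was at 0.35 without the 2 farthest. With 4 cortex and hippocampus markers Grin2a was at r = 0.53 and rho = 0.48 (permutation test, adjusted p = 0.00072 and 0.0037). Grin2b was at 0.42 and 0.39 (permutation test, adjusted p = 0.0091 and 0.022). Grin1, Grin3a and Grin2d passed by r (0.45, 0.45 and 0.34) but not by rho, and Grin2c by neither. Grin2a passed with the striatal markers by r (0.33, permutation test, adjusted p = 0.046) but not by rho (0.325, adjusted p = 0.066).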
